A study of Mus musculus with 10 samples.

Results

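The 76 genes described here are named for proteins of the mitochondrial ribosome, and the name alone does not show that every product sits in it. They were measured in mouse *Max*-null embryonic stem cells (ESCs) before and after doxycycline (Dox). They are the genes with at least one probe set on the array to which the platform's annotation gives a single symbol made of *Mrpl* or *Mrps* and a number, out of 18193 genes with a probe set of a single symbol. Each was read from its brightest probe set by the mean of the 10 arrays. The names give 47 *Mrpl* genes (large subunit) and 29 *Mrps* genes (small subunit), measured by 156 probe sets. *Mrpl30* and *Mrpl53* share their probe sets with other symbols and were not measured.

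All 10 arrays held RNA of male 129SV ESCs of one inducible line, in which both endogenous *Max* alleles are disrupted and a *Max* cDNA at the ROSA26 locus is expressed from a tetracycline-off system until Dox switches it off. The untreated cells therefore carry the same disruption and express the cDNA. In conventional medium with leukaemia inhibitory factor and serum (LIF+serum), a first set of arrays covered Dox 1, 2, 3 and 4 d with an untreated array of its own, and a second set covered Dox 6 and 8 d with another untreated array. In 2i+LIF, a medium with inhibitors of MEK and GSK3β in which the cells had been kept for 6 d, there was 1 untreated array and 1 with Dox 6 d. With 1 array per Dox time, the LIF+serum arrays were tested only for a trend over days, and the 2i+LIF arrays and the media were not tested. The labels do not say whether the untreated LIF+serum arrays are of separate cultures, and the p-values cover the spread among the 8 arrays only, part of which may be technical. The values are on the log2 scale after RMA (robust multi-array analysis). The part of *Max* that its probe set reads is not stated, so it cannot serve as a check of the labels.

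The mitochondrial ribosome makes the few proteins that mitochondrial DNA encodes, all of them subunits of the respiratory chain and ATP synthase. Its RNAs come from mitochondrial DNA, while its proteins are encoded in the nucleus, made in the cytosol and imported. Some of them hold the place of a protein of the bacterial ribosome (44 of the members), and the others are counted here as added in the mitochondrial lineage (32 members). MAX is the partner with which MYC binds the E-box CACGTG, and genes of mitochondrial biogenesis are a known group of MYC targets. The promoters of such genes often hold sites of the factor NRF1 and of ETS factors such as GABP.

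Of the 76 members, 14 fell with days of Dox in LIF+serum and 0 rose in limma at an adjusted p under 0.05, and 33 were lower and 0 higher at an unadjusted p under 0.05. At the adjusted threshold 4.17% of all 45037 probe sets fell and 4.77% rose. Among the 9837 genes whose mean log2 value reached 6, a level that all 76 members reached, 8.51% fell and 7.37% rose. No such share was counted at the unadjusted threshold. The slope was negative for 66 of the 76, with a median of -0.061 per day on the log2 scale and a range from -0.24 for *Mrpl34* to 0.045 for *Mrps18c*. Leaving out the second untreated array takes the reference of 6 and 8 d away, and limma then called 0 members and 0 of all probe sets. Without the 4 d array 3 members fell (1.82% of all probe sets), without 6 d 8 (2.49%), without 3 d 9 (2.76%), and without 8 d 23 (5.73%). In the first set of arrays alone 11 fell (2.20% of all probe sets), 7 of them among the 14, and in the second set alone 4 fell (2.57%), all among the 14. All 14 had a negative slope in both sets, and of all 76 members 70 had one in the first set and 60 in the second. The 14 were called from these same arrays, so their slopes within the sets are no independent check.

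**Figure D1:**
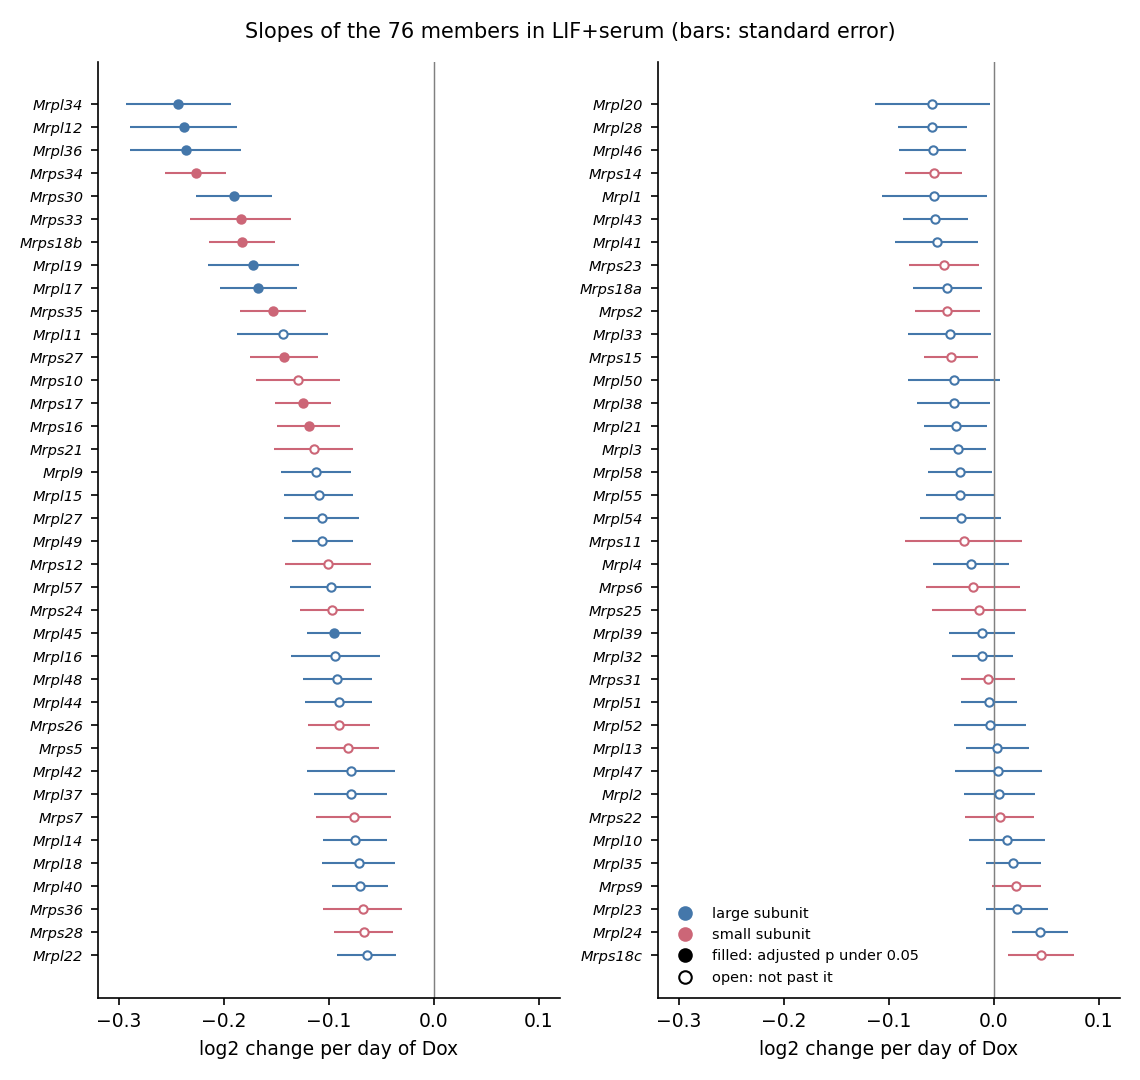
Slope per day of Dox in LIF+serum on the log2 scale (horizontal axes) with its standard error for each of the 76 members, sorted from the steepest fall, in blue for the large and red for the small subunit. Filled points mark the 14 members that fell in limma (adjusted p under 0.05), and 10 open points lie above 0, up to 0.045.

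In the 300-base windows around the start sites that RefSeq gives for GRCm38.p6, from 250 bases before to 50 after the start, the members were searched on both strands for CACGTG (E-box), CATGCGC (a part of the NRF1 motif) and CCGGAAG (the core of ETS sites). A window was available for 67 of the 76 members and 11 of the 14 that fell. CCGGAAG was in the windows of 25 members (37.3%, against 9.93% of all genes and 21.9% of the genes with a mean log2 value of at least 6). CATGCGC was in those of 8 members (11.9%, against 4.41% and 8.87%), and CACGTG in those of 5 (7.46%, against 8.09% and 12.6%). The genes were not matched on base composition, and a match is only a run of letters, not a bound site. Among the 11 that fell, 6 had CCGGAAG, 2 had CATGCGC and 1, *Mrpl36*, had CACGTG. The members that fell and had a match within 150 bases before their start are shown on their own strand, 5′ to 3′, with the match in capitals, to let the neighbourhood of the matches be seen. For *Mrpl34* (chr8:71464776-71464925, plus strand), *Mrpl17* (chr7:105811088-105811237, minus strand) and *Mrps27* (chr13:99344636-99344785, plus strand) these are the 150 bases before the start, and for *Mrpl36* (chr13:73330954-73330983, plus strand) and *Mrps16* (chr14:20393547-20393576, minus strand), where the RefSeq gene begins further upstream, 30 bases around the match. The RefSeq gene of *Mrps27* also begins upstream of the start used, so the last 19 of its printed bases lie inside the gene. Capitals mark CCGGAAG or its reverse complement in *Mrpl34*, *Mrps27* and *Mrps16*, the reverse complement of CATGCGC in *Mrpl17* and CACGTG in *Mrpl36*.
Mrpl34: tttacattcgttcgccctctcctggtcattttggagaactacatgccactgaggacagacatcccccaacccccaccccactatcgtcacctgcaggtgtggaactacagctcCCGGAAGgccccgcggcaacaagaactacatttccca
Mrpl36: cacacgtcatccCACGTGaccttacgccat
Mrpl17: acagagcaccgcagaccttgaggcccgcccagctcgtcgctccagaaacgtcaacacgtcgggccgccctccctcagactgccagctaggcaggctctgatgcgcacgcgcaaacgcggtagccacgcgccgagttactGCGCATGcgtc
Mrps27: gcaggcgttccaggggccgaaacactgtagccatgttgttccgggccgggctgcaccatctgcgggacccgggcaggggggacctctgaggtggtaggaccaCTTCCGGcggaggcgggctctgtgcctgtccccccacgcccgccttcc
Mrps16: cttgggggcgctCTTCCGGgcttcaggctc

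The first base of the match lay 37 bases before the start in *Mrpl34*, 43 in *Mrpl36*, 11 in *Mrpl17*, 48 in *Mrps27* and 74 in *Mrps16*. Of the members with CACGTG that did not pass the test, *Mrpl2* and *Mrps18c* had slopes of 0.0052 and 0.045, and *Mrpl20* and *Mrpl37* of -0.058 and -0.079.

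*Mrpl12* encodes the protein of the ribosomal stalk, which recruits the elongation factors in translation. Its log2 value was 11.19 on the first untreated array and 10.32, 10.28, 9.74 and 9.47 at 1, 2, 3 and 4 d. In the second set it was 10.78 untreated, 8.99 at 6 d and 9.51 at 8 d. Every Dox array thus lay below the untreated array of its set, with folds of 0.305, 0.289 and 0.413 at 4, 6 and 8 d. The slope was -0.24 per day (standard error 0.051, adjusted p = 0.0204 from limma). The stalk sits on a base of 2 other proteins, encoded by *Mrpl10* and *Mrpl11*, and these went separate ways. *Mrpl11* stood at 11.03 and 10.78 on the untreated arrays and at 10.62, 10.42, 10.29, 9.71, 9.71 and 10.17 at 1, 2, 3, 4, 6 and 8 d, lower on all 6 Dox arrays, but did not pass (slope -0.14, adjusted p = 0.0683 from limma). The next brightest of its 4 probe sets fell (slope -0.14, adjusted p = 0.0327 from limma), and the others did not pass. *Mrpl10* was at 9.95 and 9.53 on the untreated arrays, between 9.36 and 9.46 at 1 to 4 d, and 9.69 and 9.96 at 6 and 8 d, lying below its untreated array in the first set and above it in the second (slope 0.013, adjusted p = 0.879 from limma).

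*Mrpl34* and *Mrpl36*, which encode small proteins of the large subunit with bacterial counterparts, had slopes as steep as that of *Mrpl12*. *Mrpl34* went from 10.21 to 9.69, 9.78, 8.88 and 8.78 at 1, 2, 3 and 4 d, and from 9.85 to 7.91 at 6 d and 8.46 at 8 d. *Mrpl36* went from 9.04 to 8.75, 8.43, 7.66 and 7.57, and from 9.23 to 7.37 and 8.02. For both genes the 3 and 4 d arrays lay well below those of 1 and 2 d, and the 6 d array was the lowest of the second set, at 0.261-fold for *Mrpl34* and 0.275-fold for *Mrpl36*. The slopes were -0.24 (standard error 0.050, adjusted p = 0.0178) and -0.24 (standard error 0.053, adjusted p = 0.0246 from limma).

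Of the 14 members that fell, *Mrps34*, a small-subunit gene whose mutation causes mitochondrial disease in humans, had the smallest adjusted p. Its log2 value was 11.70 on the first untreated array and 11.13, 10.92, 10.77 and 10.59 at 1 to 4 d, each lower than the one before. In the second set it went from 11.17 to 9.64 and 9.51. The slope was -0.23 (standard error 0.029, adjusted p = 0.00363 from limma), and the fold at 8 d was 0.316. *Mrps33*, another small-subunit gene added in the mitochondrial lineage, was the exception among the 14, as it began with a rise. From 9.67 untreated it was at 10.33 at 1 d and 9.85 at 2 d before it stood at 9.09 and 8.96 at 3 and 4 d, and from 9.95 it was at 8.64 and 8.82 at 6 and 8 d (slope -0.18, adjusted p = 0.0426 from limma). The other 13 lay below their untreated array on all 6 Dox arrays.

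**Figure D2:**
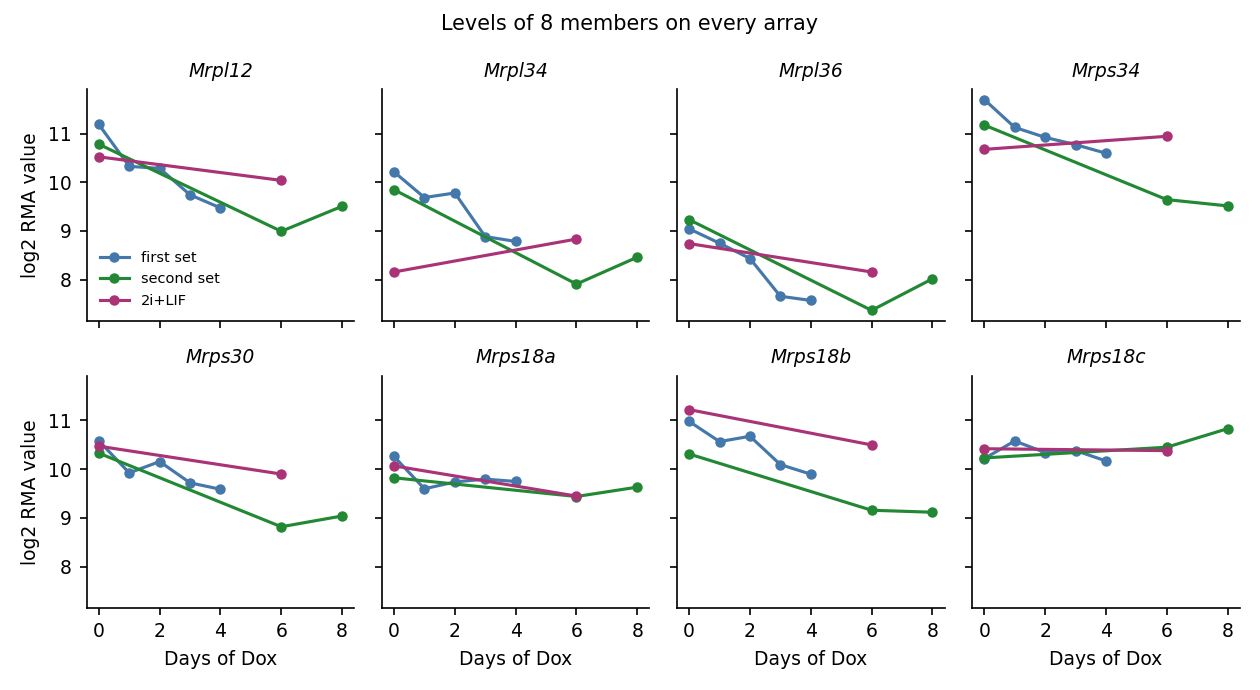
Log2 RMA values (vertical axes) of 8 members against days of Dox (horizontal axes), 1 array per point. Lines join arrays of one set, and untreated arrays are drawn at day 0. *Mrpl12*, *Mrpl34*, *Mrpl36*, *Mrps34*, *Mrps30* and *Mrps18b* fell in LIF+serum, while *Mrps18a* and *Mrps18c* did not pass the test. *Mrpl34* and *Mrps34* were higher with Dox in 2i+LIF.

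*Mrps30* and *Mrps18a* carry small-subunit names, but their proteins sit in the large subunit. *Mrps30* fell, from 10.58 untreated to 9.92, 10.16, 9.72 and 9.59 at 1 to 4 d and in the second set from 10.33 to 8.82 and 9.04 (slope -0.19, standard error 0.036, adjusted p = 0.0129 from limma). *Mrps18a* is one of 3 genes related to a single bacterial gene, and they gave different values. *Mrps18a* and *Mrps18b* are counted here among the proteins added in the mitochondrial lineage, since theirs do not hold the place of the bacterial protein. *Mrps18a* was at 10.26 untreated and between 9.60 and 9.80 at 1 to 4 d, and in the second set at 9.82, 9.44 and 9.63, lower on all 6 Dox arrays without passing (slope -0.044, adjusted p = 0.467 from limma). *Mrps18b*, whose protein lies in the small subunit, fell from 10.98 to 10.57, 10.67, 10.09 and 9.90, and from 10.31 to 9.16 and 9.11 (slope -0.18, standard error 0.032, adjusted p = 0.00947 from limma). *Mrps18c*, the one that takes the place of the bacterial protein, stood at 10.22, 10.58, 10.34, 10.38 and 10.17 in the first set (untreated, then 1 to 4 d) and at 10.23, 10.45 and 10.83 in the second. It was lower than untreated on 1 of 6 Dox arrays and 1.52-fold the untreated value at 8 d, the only member at least 1.5-fold higher on that array (slope 0.045, adjusted p = 0.436 from limma). The slopes of the paralogues were not tested against each other.

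The other 7 members that fell were *Mrpl19*, *Mrpl17*, *Mrps35*, *Mrps27*, *Mrps17*, *Mrps16* and *Mrpl45*, with slopes from -0.17 to -0.095. *Mrpl19* was the most reduced of them at 4 d, where it was 0.363-fold, and it was 0.480-fold and 0.560-fold at 6 and 8 d. *Mrpl17* was 0.442-fold, 0.506-fold and 0.521-fold at those times. *Mrps35* and *Mrps27*, the latter a protein with the RNA-binding repeats of the pentatricopeptide family, stood at 0.442-fold and 0.499-fold at 6 d. *Mrps17* and *Mrps16*, small-subunit proteins with bacterial counterparts, were at 0.561-fold and 0.597-fold at 6 d. *Mrpl45*, whose protein helps tether the ribosome to the inner membrane, lay just inside the threshold (slope -0.095, adjusted p = 0.0497 from limma). *Mrpl49* lay just outside it with a steeper slope (-0.11, adjusted p = 0.0501 from limma).

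Members that fell came from both subunits and from both kinds of ancestry. Of the 49 members counted to the large subunit 7 fell and of the 27 counted to the small subunit 7, with median slopes of -0.058 and -0.077. The median fold at 4 d was 0.684 for the large and 0.613 for the small subunit. Of the 44 members with a bacterial counterpart 7 fell (median slope -0.061, median fold at 4 d 0.656), and of the 32 counted as added in the mitochondrial lineage 7 (-0.063 and 0.640). No test was made between these classes. Across the 76 members the slope hardly followed the mean log2 value of the probe set (Pearson's r = 0.18, Spearman's rho = 0.13, as a description, since the points share the same 8 arrays).

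A lower value in these bulk RNA samples cannot tell fewer cells with the transcript from less of it per cell. The 8 markers of ESCs, among them *Pou5f1*, *Nanog* and *Sox2*, had log2 values from 9.55 to 12.99 over all 10 arrays, and several moved with Dox. On all 6 Dox arrays in LIF+serum 5 of the 8 were above their untreated array and 1 was below it. *Klf4* went from 10.78 untreated to 11.998 at 4 d and from 11.12 to 12.80 at 6 d, while *Utf1* went from 11.67 to 10.66 and from 10.84 to 9.97. The log2 of the summed level of the 8 was 14.67 and 14.77 on the untreated arrays and between 14.83 and 15.44 with Dox. The 6 germ cell markers were higher than untreated on all 6 Dox arrays but for *Mael* at 2 d (7.62, against 7.69), with *Stra8*, a gene of meiotic entry, reaching 13.28 at 8 d. The log2 of their summed level was 9.40 untreated and 11.64, 10.50, 12.96 and 13.70 at 1 to 4 d, and 10.92, 14.56 and 14.49 in the second set. The 6 fibroblast markers, which would show feeder cells, lay between 2.64 and 7.22 on all arrays, with log2 summed levels of 7.80 and 7.89 untreated and 7.47 to 8.31 with Dox. The 5 neural markers did not move together, as 3, 1, 2 and 1 of them were above the untreated array at 1, 2, 3 and 4 d, and 3 and 2 at 6 and 8 d. *Tubb3* went from 8.91 untreated to between 7.66 and 8.00 at 1 to 4 d, and stood at 9.15, 9.13 and 9.39 in the second set. *Pax6* went from 7.87 untreated to 8.20, 7.79, 8.03 and 7.49 at 1 to 4 d, and from 7.75 to 7.90 and 6.72 in the second set. As a sign of RNA quality, the log2 value of beta-actin's 3′ end minus that of its 5′ end was 0.41 untreated and 0.52 to 0.56 with Dox in the first set, and 0.88 untreated, 1.46 and 1.22 in the second, a larger value being found in shorter RNA. The members' median slope was -0.14 within the first set and -0.043 within the second. The part of these shifts in the members' decline was not tested.

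**Figure D3:**
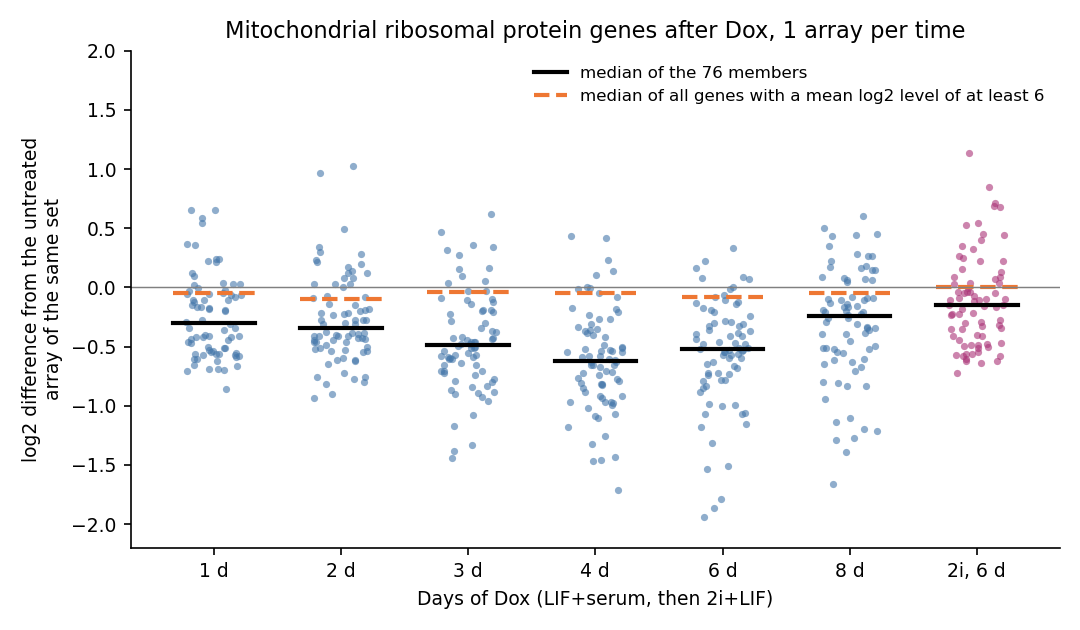
Log2 difference of each of the 76 members (points) from its untreated array (vertical axis) at each Dox time, 1 array per time. Black lines are the members' medians, which went from -0.30 at 1 d to -0.62 at 4 d and stood at -0.52 at 6 d, -0.25 at 8 d and -0.15 in 2i+LIF, and dashed lines are the medians of all genes with a mean log2 value of at least 6.

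The members were lower after 1 d of Dox, about as low at 2 d, and lower still at 3 and 4 d. At 1 d 60 of the 76 lay below the untreated array, with a median fold of 0.811, and at 2 d 57, with a median of 0.789. At 3 d it was 65 (median 0.714) and at 4 d 70 (median 0.650), and 66 of the 76 were lower at 4 d than at 1 d. Among all genes with a mean log2 value of at least 6, 54.5%, 57.4%, 53.0% and 53.3% lay below the untreated array at 1, 2, 3 and 4 d. The members at least 1.5-fold lower numbered 11 at 1 d, 13 at 2 d, 29 at 3 d and 41 at 4 d. Over all genes with a mean log2 value of at least 6 the corresponding shares were 6.14% at 1 d, 11.5% at 2 d, 15.4% at 3 d and 18.1% at 4 d. The median folds of those genes at these times were 0.969, 0.934, 0.974 and 0.966. Few members were at least 1.5-fold higher, *Mrps33*, *Mrpl33* and *Mrpl47* at 1 d, *Mrpl1* and *Mrpl47* at 2 d, *Mrpl1* at 3 d and none at 4 d (13.1%, 15.2%, 19.1% and 20.9% of all such genes). Each time is 1 array, and the germ cell markers did not keep the order of the days, since all 6 were higher at 1 d than at 2 d (*Ddx4* at 9.06 and 7.42, *Dazl* at 8.11 and 6.56).

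In the second set, the members were lower at 6 d than at 8 d. At 6 d 69 members lay below the second untreated array, with a median fold of 0.695, and 30 were at least 1.5-fold lower (20.7% of all genes with a mean of at least 6). At 8 d it was 55, with a median of 0.844, and 19 were at least 1.5-fold lower (19.5% of all such genes). Below the second untreated array lay 55.5% of all such genes at 6 d and 53.1% at 8 d, with median folds of 0.945 and 0.969. The value at 8 d exceeded that at 6 d for 69 of the 76 members, by a median of 1.19-fold, and for 55.0% of the 9837 genes. The largest steps were those of *Mrps11* (1.98-fold) and *Mrpl20* (1.82-fold), both of which ended above the untreated array. *Mrps11* went from 9.02 untreated to 8.54 and 9.53, and *Mrpl20* from 10.71 to 10.11 and 10.97. The 7 members that were not higher at 8 d were *Mrpl39*, *Mrpl48*, *Mrpl24*, *Mrps34*, *Mrps28*, *Mrps18b* and *Mrpl15*, of which *Mrps34* and *Mrps18b* are among the 14 that fell. Each of these times is 1 array, so this step has no replicate check, and the beta-actin difference was also smaller at 8 d (1.22) than at 6 d (1.46). Of the 6 fibroblast markers 3 had their highest value of the 10 arrays at 8 d (*Col1a2* at 6.90, against at most 5.53 on the others) and 2 their lowest (*Postn* at 3.58 and *Lum* at 3.01). Highest at 8 d were also 1 of the 6 markers of primitive endoderm (*Gata6* at 6.24) and 2 of the 6 of trophectoderm (*Eomes* at 7.61), of which 1 other was lowest there. Of the 5 neural markers 2 were highest at 8 d (*Tubb3* at 9.39), and of the 4 mesoderm markers 0. The part of these markers' cells in the step was not tested.

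On all 6 Dox arrays in LIF+serum 42 of the 76 members lay below the untreated array of their set, as did 24.5% of the 9837 genes. *Mrps9* and *Mrpl24* lay above it on all 6 (16.5% of those genes). *Mrps9*, a small-subunit protein with a bacterial counterpart, was at 9.85 untreated and between 9.93 and 9.997 at 1 to 4 d, and in the second set at 9.63, 9.73 and 9.78, steps that are small beside the difference of the untreated arrays. *Mrpl24*, a large-subunit protein of the same descent, was at 10.34 untreated and between 10.55 and 10.76 at 1 to 4 d, and in the second set at 10.52, 10.86 and 10.69. Neither passed the test (adjusted p = 0.642 and 0.355 from limma). *Mrpl47* was at 9.41 on the first untreated array and at 10.07, 10.39, 9.88 and 9.85 at 1 to 4 d, but at 10.48, 10.35 and 10.39 in the second set. For this gene the second untreated array thus stood above all 4 Dox arrays of the first set, and 2.10-fold above the first untreated array.

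The untreated arrays differed from each other, which bears on every fold above. The second was 0.915-fold the first by the median of the members, and 6 members differed at least 1.5-fold, *Mrpl47*, *Mrps15* and *Mrpl1* being higher (2.10-fold, 1.85-fold and 1.82-fold) and *Mrps18b*, *Mrpl3* and *Mrpl16* lower (0.629-fold, 0.622-fold and 0.533-fold). Of all genes with a mean log2 value of at least 6, 22.6% were at least 1.5-fold higher and 7.71% at least 1.5-fold lower, with a median of 1.08-fold. Among the 14 that fell, the difference was thus largest for *Mrps18b*, whose level at 8 d was 0.436-fold the second and 0.274-fold the first untreated array.

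In 2i+LIF the members moved less with Dox than in LIF+serum. After 6 d of Dox 52 of the 76 were lower and 24 higher than on the untreated 2i+LIF array, with a median fold of 0.904, and 5 were at least 1.5-fold lower and 5 at least 1.5-fold higher (9.82% and 9.25% of all genes with a mean of at least 6, whose median fold was 1.00). The log2 difference was less negative than at 6 d in LIF+serum for 59 members and more negative for 17. Of the 14 members that fell in LIF+serum 10 were lower in 2i+LIF as well, with a median fold of 0.712 over the 14, against 0.914 over the other 62. For 13 members the 2i+LIF array lay on the other side of its untreated array than all 6 Dox arrays in LIF+serum, as for 20.1% of the 9837 genes, a share that the members did not exceed. Across the 76 members, the slope in LIF+serum and the difference in 2i+LIF showed no linear relation (Pearson's r = -0.015, Spearman's rho = 0.041, as a description over genes of the same arrays).

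**Figure D4:**
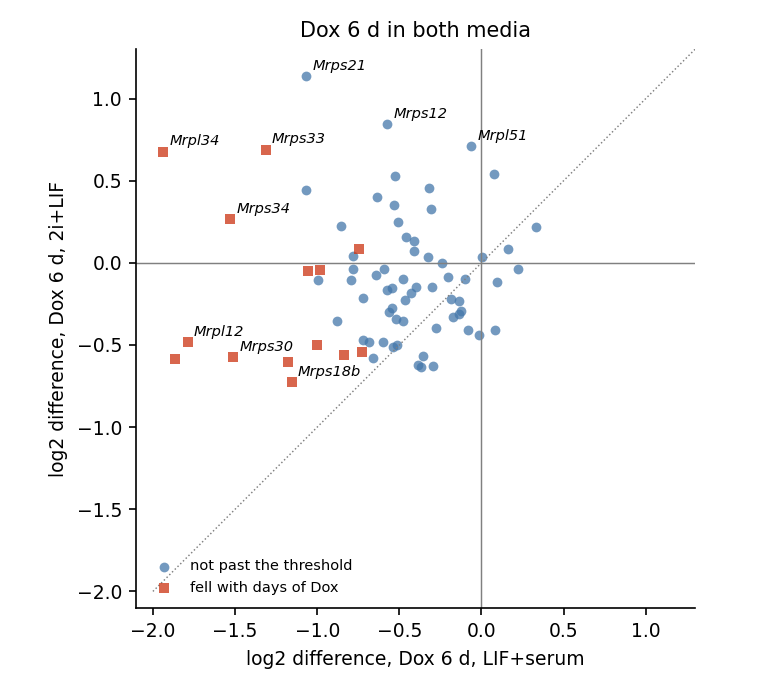
Log2 difference between Dox 6 d and untreated in 2i+LIF (vertical axis) against that in LIF+serum (horizontal axis) for the 76 members, 1 array per condition. Red squares are the 14 members that fell over days in LIF+serum, of which 10 lie below 0 on the vertical axis, as do 42 of the other 62. Above the dotted line of equal differences lie 59 members.

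*Mrps21* stood out upwards, at 9.27 untreated and 10.41 with Dox in 2i+LIF (2.20-fold), while in LIF+serum it was lower on all 6 Dox arrays, from 9.62 to 8.56 at 6 d. *Mrps12*, which encodes a protein of the decoding centre and was read from a probe set that may bind other transcripts too, was at 9.06 and 9.90 in 2i+LIF (1.80-fold) and also lower on all 6 Dox arrays in LIF+serum. *Mrpl51* was 1.64-fold, *Mrps33* 1.61-fold and *Mrpl34* 1.60-fold higher. The largest decreases in 2i+LIF were those of *Mrps18b* (from 11.22 to 10.50, 0.605-fold), *Mrpl32* (0.644-fold), *Mrpl48* (0.648-fold), *Mrps18a* (0.650-fold) and *Mrps35* (0.657-fold). *Mrps18b* and *Mrps35* are thus lower with Dox in both media, whereas *Mrpl32* was at 0.774-fold at 6 d in LIF+serum and did not pass there (slope -0.011, adjusted p = 0.867 from limma).

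In untreated cells the members' median in 2i+LIF was 0.971-fold the mean of both LIF+serum arrays, a log2 difference of -0.043 that became -0.23 after quantile normalization, with 11 members at least 1.5-fold lower and 4 at least 1.5-fold higher (14.0% and 20.6% of all genes with a mean of at least 6). The median of all such genes was 1.06-fold. Against the first untreated LIF+serum array alone the members' median was 0.919-fold, and against the second 0.997-fold. *Mrpl34* was the furthest apart, at 8.16 in 2i+LIF against 10.21 and 9.85, or 0.273-fold, so that its increase with Dox in 2i+LIF, to 8.83, left it below both untreated LIF+serum arrays. *Mrps12* (0.440-fold), *Mrpl18* (0.446-fold) and *Mrpl11* (0.462-fold) followed. These 4 were all higher with Dox in 2i+LIF, at 1.60-fold, 1.80-fold, 1.45-fold and 1.36-fold. The same untreated 2i+LIF array enters both folds. A low reading on it would make a gene look both low in this medium and higher with Dox. *Mrpl2* (1.79-fold), *Mrps2* (1.74-fold), *Mrpl24* (1.69-fold) and *Mrpl54* (1.56-fold) were the 4 members at least 1.5-fold higher in untreated 2i+LIF than in LIF+serum. The medians of the 2i+LIF arrays, 5.14 and 5.16, lie below the 5.26 to 5.33 of the other arrays, and the sources used here do not say which arrays were normalized together.

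Genes with more than one probe set gave a check on the choice of the brightest. Of the 156 probe sets of the members 27 fell and 4 rose, and 27 of the 42 genes with several had slopes of one sign on all of them. Over all probe sets 4.17% fell and 4.77% rose. At least 1 probe set fell for 22 genes, the 14 and *Mrpl11*, *Mrpl15*, *Mrpl27*, *Mrpl38*, *Mrpl48*, *Mrps5*, *Mrps24* and *Mrps31*. For *Mrpl15* those with mean log2 values of 11.30, 11.12 and 10.95 fell (adjusted p = 0.0196, 0.0211 and 0.0224 from limma). Its brightest (adjusted p = 0.0681) and its others did not pass. Both probe sets of *Mrpl34* fell (slopes -0.24 and -0.16, adjusted p = 0.0178 and 0.0198 from limma), as did both bright ones of *Mrpl19* (-0.17 and -0.23, adjusted p = 0.0372 and 0.0147). For *Mrpl17* the other 2 probe sets, with mean log2 values of 5.93 and 5.44 against 10.79, had slopes of 0.0040 and 0.052 and did not pass. *Mrpl48* was the one gene with calls both ways. Its brightest probe set did not pass (slope -0.092, adjusted p = 0.116 from limma), the next fell (-0.15, adjusted p = 0.0150), and a weak one with a mean of 4.16 rose (0.15, adjusted p = 0.0184). The brightest probe sets of 8 members (*Mrpl9*, *Mrpl15*, *Mrpl19*, *Mrpl37*, *Mrpl38*, *Mrps6*, *Mrps12* and *Mrps24*) are of the kinds that may bind transcripts of other genes, and *Mrpl19* is the one of them that fell.

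Among the proteins of the mitochondrial ribosome that have other names, *Gadd45gip1*, whose protein lies near the exit of the large subunit's tunnel, fell with a slope more negative than that of any member. It went from 9.76 untreated to 0.448-fold, 0.348-fold, 0.278-fold and 0.242-fold at 1 to 4 d, and from 9.55 to 0.232-fold and 0.294-fold in the second set (slope -0.30 with a standard error of 0.055, adjusted p = 0.0117 from limma). The small-subunit genes *Chchd1*, *Ptcd3* and *Dap3* did not pass (slopes -0.097, -0.032 and -0.020), and in 2i+LIF *Dap3* was 1.60-fold and *Ptcd3* 0.508-fold the untreated value.

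The other lists of mitochondrial gene expression held few genes that passed, and their counts are to be read against the 8.51% that fell among all genes with a mean of at least 6. Of 10 mitochondrial translation factors 2 fell (20.0%) and 0 rose, with a median fold of 0.817 at 4 d, namely *Mrrf*, which recycles the ribosome (0.463-fold at 6 d, slope -0.14, adjusted p = 0.0210 from limma), and *Gfm2*, its partner in recycling (0.666-fold, slope -0.090, adjusted p = 0.0469). *Tufm*, the elongation factor that brings in aminoacyl-tRNA, was 0.506-fold and 0.491-fold at 4 and 6 d but did not pass (slope -0.11, adjusted p = 0.167 from limma). Of 25 genes of ribosome assembly and rRNA modification 2 fell (*Trub2* and *Mettl17*, 8.0%) and 0 rose, with median folds from 0.726 to 0.806 over the 6 Dox times. Of 16 mitochondrial aminoacyl-tRNA synthetases 3 fell (*Mars2*, *Yars2* and *Wars2*, 18.8%) and 0 rose, with a median of 0.828 at 4 d. Of 11 genes of the mitochondrial genome and its RNA 1 fell (*Tefm*, 9.09%) and 0 rose, and their median fold was above 1 at first, at 1.11, 1.41 and 1.07 at 1, 2 and 3 d, and 0.904, 0.753 and 0.928 at 4, 6 and 8 d.

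**Figure D5:**
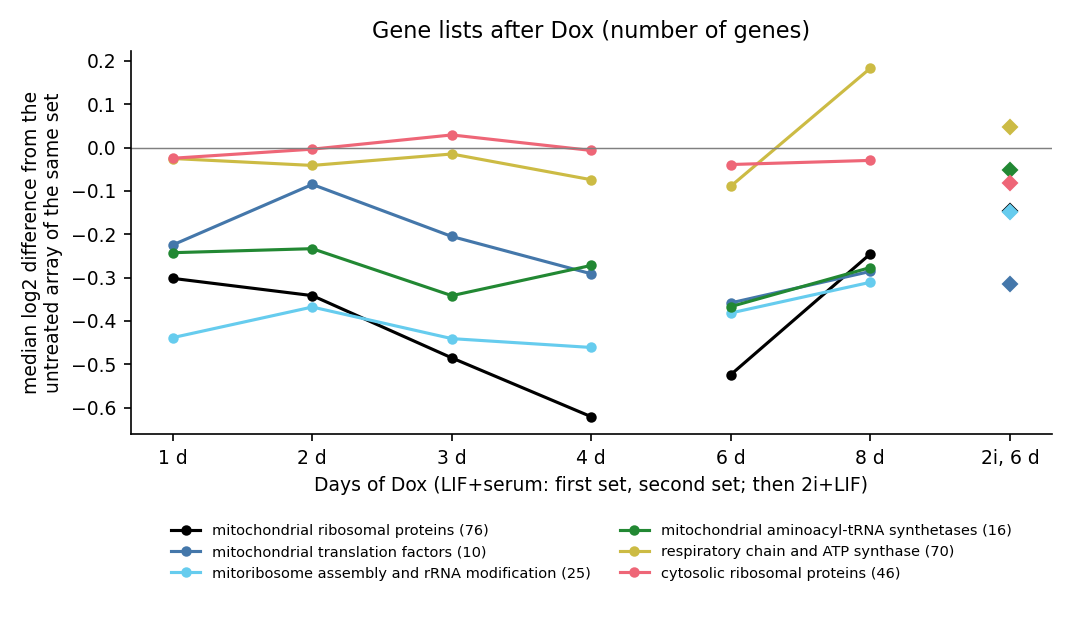
Median log2 difference from the set's untreated array (vertical axis) of the members and 5 other gene lists at each Dox time, with lines joining the arrays of a set in LIF+serum and diamonds for 2i+LIF. The median of the 76 members reached -0.62 at 4 d, while that of 46 cytosolic ribosomal proteins stayed between -0.039 and 0.029 in LIF+serum and that of 70 respiratory chain and ATP synthase genes was 0.18 at 8 d.

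The 46 cytosolic ribosomal protein genes and the 70 genes of the respiratory chain and ATP synthase were counted in the same way. The complexes to which the products of the mitochondrial ribosome belong are among those of the latter list. Of the cytosolic ribosomal proteins 2 fell (*Rps27* and *Rpl12*, 4.35%) and 0 rose, with a median slope of -0.00044 and a median fold of 0.995 at 4 d, 0.973 at 6 d and 0.980 at 8 d. Many of their probe sets are far brighter than those of the members, whose mean log2 values lay between 8.09 and 11.48. On the first untreated array *Rplp0* stood at 13.60, but *Rps27* and *Rpl12* at 7.48 and 8.50 and *Rps16* at 3.38. Whether the level of the probe sets bears on the flat median was not tested. Of the respiratory chain and ATP synthase genes 0 fell and 4 rose in limma (5.71%, against 7.37% of all genes with a mean of at least 6), *Atp5pb* (slope 0.11, adjusted p = 0.0241), *Ndufs1* (0.14, adjusted p = 0.0246), *Ndufa1* (0.11, adjusted p = 0.0345) and *Ndufb9* (0.089, adjusted p = 0.04998). At an unadjusted p under 0.05 from limma 5 were lower and 11 higher, a threshold at which no share of all genes was counted. The median folds of the 70 genes at 4, 6 and 8 d were 0.950, 0.940 and 1.14, and those of the members 0.650, 0.695 and 0.844. The lists were not tested against each other.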

How the data were processed

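RNA of the 10 samples was hybridised to Affymetrix mouse arrays. The authors corrected for background and normalized with RMA (the R package affy, named in the submitters' notes without a version), and the deposited values are log2. RMA hides a change of all transcripts and shrinks weak differences. Precision is limited by how few arrays there are.

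Of 45101 probe sets 64 controls were left out. By the annotation, 34945 of the rest had 1 symbol, 932 had several and 9160 were unlisted. The change per day of Dox was estimated for all 45037 over the 8 LIF+serum arrays with limma 3.58.1 (R 4.3.3; lmFit and eBayes, array set as covariate, 5 residual and 4.81 prior degrees of freedom), with two-sided p-values adjusted by Benjamini-Hochberg at 0.05. The step was tested on simulated data. A fold is the ratio to the untreated array in the same set. Python 3.11.15, pandas 2.3.3, numpy 2.4.6 and matplotlib 3.10.9 served the other steps.

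The members and lists were chosen with earlier results of these data known. The named members are those that fell, the 3 brightest and 3 dimmest, the 5 largest changes each way in 2i+LIF, the stalk and *Mrps18* genes, *Mrps30*, *Mrpl47*, genes with opposite calls, genes that changed side in 2i+LIF, and up to 4 genes per list by p. Some others were chosen after their values were seen. Alternatives changed the covariate, the time scale, the arrays, the filter, the normalization and the probe set.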

Additional observations from a re-analysis of the deposited data

Results flagged for a closer look

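For 13 members all 6 Dox arrays in LIF+serum lay on one side of their untreated array and the 2i+LIF array with Dox lay on the other, as for 20.1% of the 9837 genes with a mean log2 value of at least 6. The difference between the media was not tested, since 2i+LIF has 1 array with Dox and 1 without. All but *Mrps9* were lower in LIF+serum and higher in 2i+LIF, by 1.14 (log2) for *Mrps21*, 0.85 for *Mrps12*, 0.68 for *Mrpl34*, 0.44 for *Mrpl11*, 0.40 for *Mrpl14*, 0.35 for *Mrpl43*, 0.32 for *Mrps28*, 0.27 for *Mrps34*, 0.22 for *Mrpl44*, 0.15 for *Mrpl3*, 0.13 for *Mrpl28* and 0.085 for *Mrps16*. *Mrps9* was higher in LIF+serum and lower in 2i+LIF (-0.12). *Mrpl34*, *Mrps34* and *Mrps16* are among the 14 members that fell in LIF+serum. On the untreated arrays *Mrpl34*, *Mrps12* and *Mrpl11* stood lower in 2i+LIF than in LIF+serum (0.273-fold, 0.440-fold and 0.462-fold). The same untreated 2i+LIF array enters these folds and the differences with Dox, so the values are not independent.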

How the results depend on the processing

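Of the 76 members 14 fell and 0 rose (4.17% of all probe sets fell), and 0 rose under each alternative. The number that fell was 23 on a log2(day + 1) scale (all 14 among them, 5.55% of all probe sets), 4 for any Dox against none (1.11%), 4 in the second set alone (2.57%), 8 among the 62 members that have a probe set free of the _s, _x or _a types, and from 0 (without the second untreated array, 0 of all probe sets) to 23 (without 8 d, 5.73%) when an array was left out. It stayed within 1.5-fold of 14 without the set term, in the first set alone, among bright probe sets, after quantile normalization, with trend and robust eBayes and for the mean of a gene's probe sets. The members' median difference between untreated 2i+LIF and LIF+serum was -0.23 after quantile normalization against -0.043 as deposited. That normalization moved the median of all probe sets by 0.13, from -0.16 to -0.033.

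One of the 14 changed sign, *Mrpl17*, whose next probe set had a slope of 0.0040. The other changes of sign were in slopes that had not passed. For any Dox against none the difference was 0.032 for *Mrpl1*, -0.17 for *Mrpl10* and -0.21 for *Mrpl2*. On the log2(day + 1) scale *Mrpl10* had -0.012 and *Mrpl2* -0.018. In the first set alone the slope was 0.0073 for *Mrpl1*, -0.11 for *Mrpl10*, -0.011 for *Mrpl2*, 0.027 for *Mrpl32*, 0.084 for *Mrpl39* and -0.029 for *Mrps18c*, and in the second -0.014 for *Mrpl47* and 0.011 for *Mrpl51*. With other probe sets it was 0.053 for *Mrpl1*, 0.019 for *Mrpl51* and -0.00068 for *Mrps9*, and for the mean of the probe sets 0.0026 for *Mrpl1*, 0.014 for *Mrpl3* and 0.036 for *Mrpl51*. Without the set term it was 0.018 for *Mrpl32* and -0.0030 for *Mrps9*, and after quantile normalization 0.0020 for *Mrpl32* and 0.010 for *Mrpl51*. Leaving out 1 array gave from -0.091 to 0.018 for *Mrpl1*, from -0.023 to 0.025 for *Mrpl2*, from -0.069 to 0.042 for *Mrpl10*, from -0.030 to 0.047 for *Mrpl32*, from -0.020 to 0.038 for *Mrpl39*, from -0.027 to 0.061 for *Mrpl47* and from -0.033 to 0.0042 for *Mrpl51*. The cause was not tested.

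The labels give the groups no shared replicate numbers, so no pairing by number was made, and the array set was the block in the fit. Without it 14 members fell, 11 of them among the 14. Each Dox time is 1 array, and 5 residual degrees of freedom limit the trend.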
